A study of Homo sapiens with 4 samples.

Results

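The neuron subtypes described here, EN 1 to EN 8, are the 8 groups into which the authors' annotation divided the enteric neuron nuclei of untreated enteric ganglioids. Members were taken from the control samples alone, as nuclei whose deposited cell type was Enteric Neuron and whose deposited subtype had 50 or more nuclei over both control samples. This gave 3519 of 3551 control neurons, 2285 in control replicate 1 and 1234 in control replicate 2, out of 7313 annotated control nuclei. The remaining 32 neurons, marked as non-neuronal in the subtype column, were left out. Enteric ganglioids are three-dimensional aggregates of neurons and supporting cells grown from enteric neural crest cells, which were themselves derived here from the established human embryonic stem cell line H9. The study profiled nuclei of such ganglioids by droplet sequencing in 4 samples, 2 controls and 2 exposed to the kinase inhibitor PP121 (2 µM, day 15 to 20), of which the exposed samples were not analysed here. The control replicates, which the paper treats as biological replicates, had no PP121 and were each a pool of ganglioids. All nuclei share 1 cell line, and the labels give both samples as stage 1. The deposited sample column gives stage 2 for control replicate 2. The deposited annotation dates control replicate 1 to day 42 and control replicate 2 to day 38, whereas the study's methods give 1 day for both and the annotation's sample column goes against the labels, so these dates are in doubt. Age and sample cannot be told apart.

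The enteric nervous system lies in the gut wall and arises from neural crest cells of the hindbrain level, which enter the gut and depend on factors such as HAND2 and the receptor tyrosine kinase RET. Its excitatory motor neurons mostly use acetylcholine with tachykinins, and its inhibitory motor neurons mostly use nitric oxide with VIP. Interneurons and sensory neurons of the gut add serotonin, glutamate, GABA and several peptides. Young neurons pass from dividing progenitors through a stage marked by Notch ligands and proneural factors, and then take up guidance receptors, adhesion molecules, ion channels and transmitter enzymes.

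The deposited matrices hold counts of unique molecular identifiers (UMIs), each standing for 1 captured RNA molecule. The control neurons with a subtype held 18798282 UMIs in replicate 1 and 10887666 in replicate 2. Over the subtypes, the median UMI count per nucleus ran from 6840 to 7771.5 in replicate 1 and from 7021 to 9387 in replicate 2. The control samples shared 15 barcodes in all and 0 among neurons. The clusters were made by the authors on both controls merged, without a batch correction, from the expression of these same nuclei. The most variable genes of these nuclei set the clusters, and every other gene was measured in the same clustered nuclei, so differences between subtypes are given as descriptions, with no test.

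Levels are CPM, the UMIs of a gene summed over all nuclei of a subtype in 1 sample, as a part of every 1000000 UMIs of those nuclei. Each subtype was set against the other control neurons of the same sample as the log2 of the ratio of (CPM + 10), called the log2 fold below. A gene was called higher or lower where that fold reached 2 in the same direction in both samples, with 10 or more UMIs observed or expected in the subtype, among 17982 genes with 50 or more UMIs in control neurons. EN 7 had only 9 nuclei in replicate 2, under the minimum of 20, so its calls rest on replicate 1 alone. Mean log2 folds are over the replicates, with the SD at n = 2.

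The subtypes were not equally represented in both samples. EN 1 was the most frequent, with 547 of 2285 neurons in replicate 1 (23.9%, exact 95% binomial interval 22.2 to 25.7) and 383 of 1234 in replicate 2 (31.0%, 28.5 to 33.7). EN 2 took 16.5% (15.04 to 18.1) of replicate 1 and 13.9% (12.0 to 15.9) of replicate 2. EN 3 took 17.6% (16.1 to 19.3) and 10.7% (9.03 to 12.6). These intervals, which cover counting error only, overlapped between the samples for EN 2 and for no other subtype. EN 5 took 13.0% (11.7 to 14.5) of replicate 1 and 4.29% (3.23 to 5.58) of replicate 2. EN 7 took 11.1% (9.81 to 12.4) and 0.729% (0.334 to 1.38), so that 253 of its 262 nuclei came from replicate 1. Both were larger in replicate 1. EN 4 took 7.92% (6.85 to 9.11) of replicate 1 and 17.3% (15.2 to 19.5) of replicate 2. EN 6 took 5.51% (4.61 to 6.53) and 12.6% (10.8 to 14.5), and EN 8 took 4.33% (3.54 to 5.25) and 9.56% (7.98 to 11.3). These 3 were larger in replicate 2. With 2 samples, the spread between samples was as large as 5.90 ± 7.31% (mean ± SD, n = 2) for EN 7 and as small as 15.2 ± 1.90% for EN 2.

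**Figure D1:**
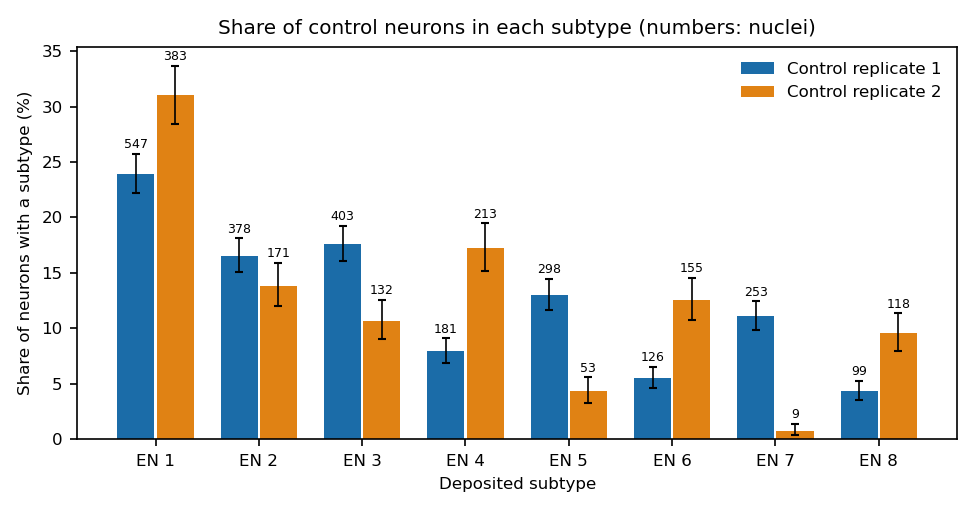
Share of control neurons (percent, vertical axis) held by each subtype in control replicate 1 and control replicate 2, with exact 95% binomial intervals as bars. EN 5 and EN 7 are larger in replicate 1, EN 4, EN 6 and EN 8 are larger in replicate 2, and EN 7 is nearly absent from replicate 2.

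The nuclei carried the pan-neuronal genes of the annotation and few UMIs of the defining enteric genes. The 11 neuronal genes by which the study annotated neurons summed to 4709 to 14770 CPM over the subtypes in replicate 1 and to 5052 to 14470 in replicate 2, against 529.7 and 707 CPM in nuclei annotated as mesenchymal. RBFOX3, the neuronal nuclear antigen NeuN, was at 33.3 to 99.8 CPM in replicate 1 and 23.1 to 90.5 in replicate 2. The 13 mesenchymal annotation genes summed to at most 186 and 258 CPM in any subtype, against 5185 and 4873 CPM in mesenchymal nuclei, and each of the 13 had at least 1 UMI in neurons. The 3 epithelial genes summed to at most 13.3 and 14.8 CPM. Of the enteric and autonomic lineage factors, RET had 31 UMIs over all neurons of replicate 1 and 19 over those of replicate 2, or 1.65 and 1.75 CPM. EDNRB, the endothelin receptor of enteric progenitors, had 39 and 13 UMIs, and HAND2, needed for enteric neuron differentiation, had 1 and 1. The label therefore rests on pan-neuronal genes, and these 3 enteric genes were near 0.

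HOX genes mark the position of cells along the body axis. The 3' paralogues HOXA3, HOXB2 and HOXB3 were measured in every subtype. HOXA3 was at 44.8 and 30.5 CPM over all neurons, and HOXB3 at 83.0 and 47.6 CPM. Of 30 listed HOX genes, 12 had no UMI in any control neuron of either sample, namely HOXA6, HOXA7, HOXA9, HOXB5, HOXB6, HOXB7, HOXB8, HOXB9, HOXC6, HOXC8, HOXC9 and HOXD10. A count of 0 allows up to 0.160 CPM in replicate 1 and 0.276 CPM in replicate 2, the level of 3 UMIs. HOXB3 was called higher in EN 3 (157 and 117 CPM) and HOXA3 in EN 7 (108 CPM in replicate 1, 75.3 in the 9 nuclei of replicate 2).

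Transmitter genes set EN 2, EN 3, EN 5 and EN 7 apart from EN 4 and EN 8. The former held more glycine transporter and GABA enzyme than EN 4 and EN 8, which held the vesicular glutamate transporter. Against all other neurons, SLC6A5 was called higher in EN 3 alone and GAD2 in EN 7 alone. EN 2 and EN 5 had neither call. EN 1 and EN 6 lay on neither side, since SLC6A5 and GAD2 were called lower and SLC17A6 was not called higher. SLC6A5, the glycine transporter GlyT2 of glycinergic nerve endings, was highest in EN 3 at 821 and 1310 CPM. It was at 732 and 576 CPM in EN 2, at 409 and 606 in EN 5 and at 394 in EN 7, with 721 in the 9 replicate 2 nuclei. SLC6A5 was lower in EN 1 at 201 and 163 CPM and in EN 6 at 120 and 99.8 CPM. It was lowest in EN 4 (57.4 and 24.7 CPM) and EN 8 (24.2 and 12.4 CPM). With each nucleus thinned to 2000 UMIs, SLC6A5 was seen in 70.4% and 85.6% of EN 3 nuclei. At that depth it was seen in 5.53% and 2.82% of EN 4 nuclei and in 3.06% and 3.39% of EN 8 nuclei. Of nuclei not annotated as neurons, Progenitor 2 gave 6.19% and 2.81%, Progenitor 1 gave 2.75% and 1.49% and mesenchymal nuclei gave 5.00% and 3.21%. Without thinning, SLC6A5 was at 54.0 and 28.3 CPM in Progenitor 2, at 20.7 and 10.3 in Progenitor 1 and at 22.4 and 17.1 in mesenchymal nuclei. The EN 4 and EN 8 levels are therefore not read as expression.

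GAD2, which makes GABA from glutamate, was highest in a different subtype. It was at 252 CPM in EN 7 of replicate 1 and 258 in the 9 nuclei of replicate 2. In EN 3 it was at 175 and 174 CPM, in EN 2 at 150 and 120 and in EN 5 at 142 and 160. GAD2 was at 45.0 and 25.4 CPM in EN 1, at 31.5 and 25.0 in EN 6, at 19.1 and 7.67 in EN 4 and at 14.8 and 2.07 in EN 8. The 4 subtypes with the most GAD2 were thus the 4 with the most SLC6A5, in both samples. GAD1, the other GABA-making enzyme, was called higher in EN 5 alone, at 128 and 87.2 CPM, although EN 3 reached 87.2 CPM in replicate 2 as well.

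SLC17A6, which loads glutamate into vesicles (VGLUT2), was called higher in EN 4 at 140 and 123 CPM and in EN 8 at 102 and 102 CPM. In every other subtype it was at 9.91 CPM or less in replicate 1 and at 18.5 CPM or less in replicate 2. The groups of EN 4 and EN 8 values did not overlap those of the others. At 2000 UMIs a nucleus, SLC17A6 was seen in 21.6% and 20.2% of EN 4 nuclei and in 17.4% and 15.3% of EN 8 nuclei, against 0.261% and 0.295% of Progenitor 2 nuclei. Without thinning the shares were 44.2% and 41.8% in EN 4 and 34.3% and 37.3% in EN 8.

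Genes of the classical enteric transmitters were sparse. CHAT, which makes acetylcholine, was called higher in EN 3 at 51.4 and 73.8 CPM, and at 2000 UMIs it was seen in 9.95% and 12.9% of EN 3 nuclei against 0.697% and 0.443% of Progenitor 2 nuclei. EN 2 held 27.1 and 23.4 CPM of CHAT, below the call. SLC18A3, the vesicular acetylcholine transporter, did not pass 3.63 CPM in any subtype of either sample. SLC5A7, which takes up choline, was at 56.5 and 24.9 CPM in EN 8 and at 15.7 and 97.5 CPM in EN 4, so the 2 samples gave opposite orders. In the other subtypes it was at 8.11 CPM or less, and EN 3, where CHAT was highest, held 0 and 2.51 CPM of it. NOS1, the neuronal nitric oxide synthase, had 81 and 57 UMIs over all neurons. It reached 19.8 and 12.1 CPM in EN 4 and no subtype passed the call. VIP had no UMI in either sample, and the noradrenaline enzyme DBH had 5 and 4. TH, which makes the dopamine precursor, was at 19.8 and 19.7 CPM in EN 4 and at 8.07 and 20.7 CPM in EN 8, also without a call. TAC1, the gene of substance P, was called higher in EN 8 at 25.6 and 79.8 CPM. EN 4 held 26.0 and 14.8 CPM of TAC1, which was not called there, and no other subtype passed 7.58 CPM.

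**Figure D2:**
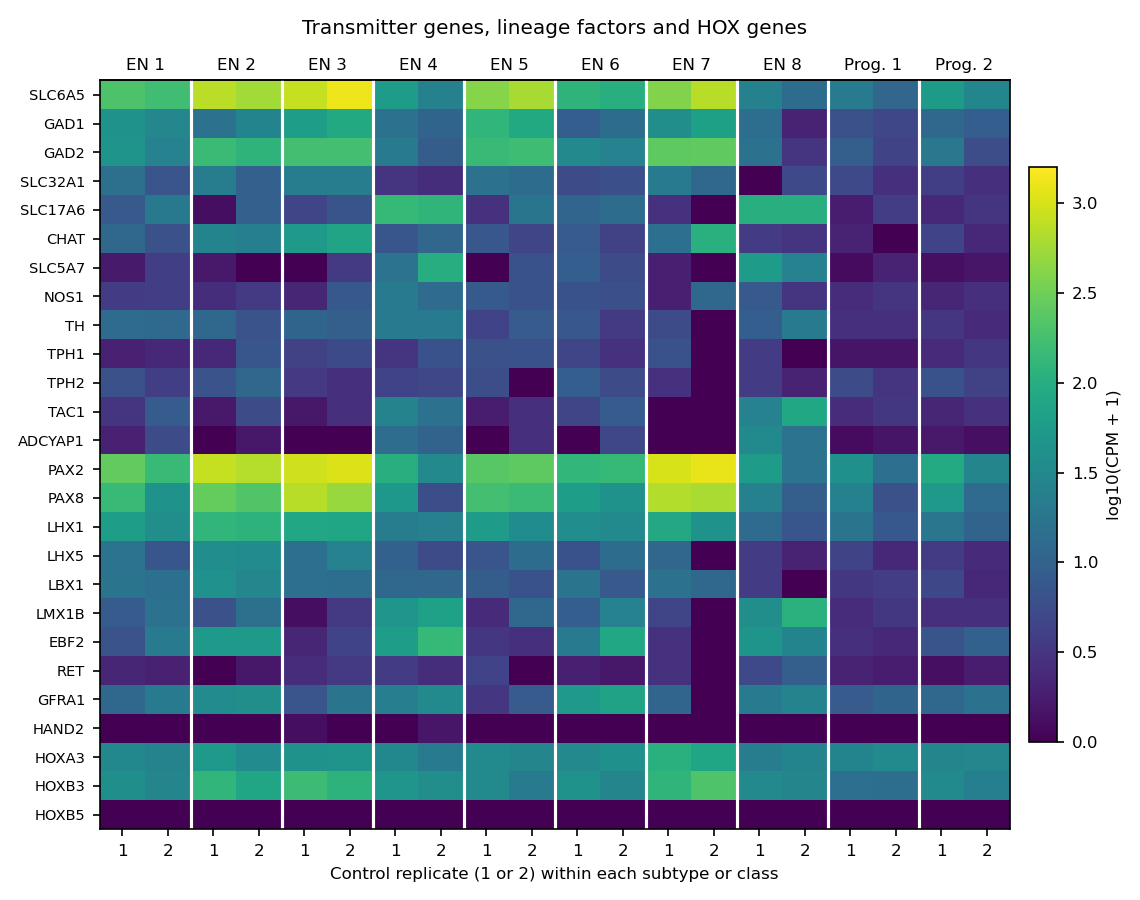
Level of transmitter genes, lineage factors and HOX genes (colour, log10 of CPM + 1) in each subtype and in Progenitor 1 and Progenitor 2 nuclei of control replicates 1 and 2. SLC6A5, GAD2, PAX2 and PAX8 are high in EN 2, EN 3 and EN 7, SLC17A6 is high in EN 4 and EN 8, and HAND2 and HOXB5 are at or near 0 throughout.

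The deposited transmitter identities were in several cases more frequent than nuclei with a UMI of a synthesis or transport gene of that transmitter, but not in all. They were assigned by the authors per nucleus from values imputed with a low-rank approximation, and a nucleus may hold several. The nitrergic label needed imputed NOS1 and a module score of nitric oxide genes above 0. The rules of the other labels are not given in the sources used here, so these labels may rest on further genes. Over all neurons, 56.2% and 56.9% of nuclei held 2 or more identities, and 11.1% and 10.4% held none. The GABAergic label covered 87.1% and 96.2% of EN 3 nuclei and 88.9% and 86.8% of EN 5 nuclei, against 2.21% and 0.939% in EN 4 and 4.04% and 0% in EN 8. The cholinergic label covered 89.1% and 89.4% of EN 3 and 46.8% and 32.7% of EN 2. The GABAergic label did not follow the order of GAD2, since it covered 41.5% of EN 7 in replicate 1, where GAD2 was highest, 28.6% and 36.8% of EN 2, and 34.4% and 19.1% of EN 1.

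Other identities also differed in order from the counts. The glutamatergic label was most frequent in EN 6, at 61.9% and 78.1%, followed in replicate 2 by EN 2 at 69.6%. SLC17A6 was at 9.91 and 12.5 CPM in EN 6 and was seen in 6.35% and 6.45% of its nuclei without thinning. In EN 4, where SLC17A6 was highest, the label covered 39.2% and 46.5%, and in EN 8 it covered 8.08% and 31.4%. In EN 8, and in EN 4 of replicate 1, it was less frequent than nuclei with an SLC17A6 UMI without thinning. The nitrergic label covered 73.7% and 28.0% of EN 8, while NOS1 was seen without thinning in 5.05% and 1.69% of EN 8 nuclei. The serotonergic label covered 64.4% and 86.8% of EN 5, while TPH2, the neuronal enzyme of serotonin synthesis, was seen without thinning in 3.36% and 0% of EN 5 nuclei. The catecholaminergic label, which the deposited dopaminergic column repeats, covered 22.2% of EN 8 in replicate 1 and 64.4% in replicate 2. The part of imputation in these gaps was not tested.

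**Figure D3:**
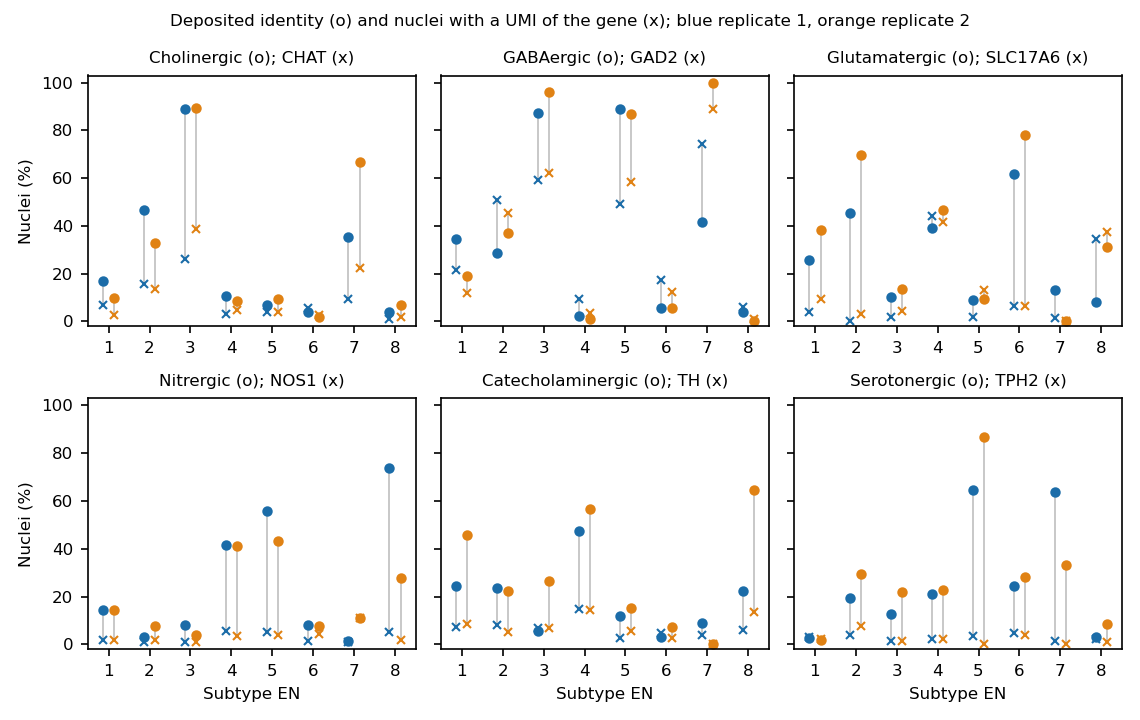
Percent of nuclei of each subtype that carry each deposited transmitter identity (circles) in control replicate 1 and control replicate 2. Crosses give, without thinning, the percent of nuclei with a UMI of the gene named on each panel (CHAT, GAD2, SLC17A6, NOS1, TH or TPH2). EN 3 and EN 5 are mostly GABAergic, EN 3 is also mostly cholinergic, and the nitrergic and catecholaminergic labels of EN 8 differ widely between the samples.

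EN 3 was marked by PAX2, PAX8 and the glycine transporter. It had 41 genes called higher (0.228% of genes tested) and 26 called lower (0.145%), the fewest calls of any subtype. PAX8, a paired box factor of hindbrain and spinal cord inhibitory interneurons, was at 711 and 511 CPM in EN 3 against 230 and 72.3 CPM in the other neurons (mean log2 fold 2.13 ± 0.76, SD, n = 2). PAX2, its close relative, was at 932 and 1082 CPM in EN 3 (log2 fold 1.65). The other leading genes were PLD5 (1898 and 1838 CPM against 479 and 143), GALNTL6, SAMD5, SLC35F4, the synaptic vesicle protein gene SV2C, the TRH-degrading enzyme gene TRHDE and SLC6A5. Of the 8 leading genes 7 had the larger fold in replicate 2, as did SLC6A5 (1.24 and 2.58) and TRHDE (1.37 and 2.63), and the other neurons of replicate 1 held more of both (SLC6A5 at 342 and 211 CPM, TRHDE at 111 and 19.7 CPM). The share of EN 7 among those other neurons also differed between the samples, and its part in these folds was not tested. The genes lowest in EN 3 were CACNA2D1, a calcium channel subunit gene, ROBO3 and DACH1.

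EN 7 shared the PAX2 and PAX8 pattern and differed in its adhesion genes, in both directions. Of 57 guidance and adhesion genes, 6 were called higher and 8 lower in replicate 1 (median log2 fold -0.08 beside -0.03 over all genes). In replicate 1 it had 122 genes called higher (0.678% of genes tested) and 132 called lower (0.734%). PAX2 was at 1010 CPM and PAX8 at 685 CPM in replicate 1, and the 9 nuclei of replicate 2 gave 1248 and 613 CPM. NXPH1, a ligand of neurexins, was at 732 CPM against 83.1 in the other neurons (log2 fold 2.99), and at 323 CPM against 72.5 in replicate 2. CNTN5, a contactin of the cell surface, was at 272 CPM against 46.8, and at 656 CPM against 28.8 in replicate 2. CDH12, a cadherin, was at 880 CPM against 155, and at 828 against 355 in replicate 2. These 3 genes kept their direction in the few nuclei of replicate 2. LINGO2 was at 1104 CPM against 269, and at 398 against 238 in replicate 2. ADAMTS18 was at 162.5 CPM against 35.8, and at 32.3 against 14.4 in replicate 2. ZEB2, a zinc finger factor of neural crest and interneurons, was at 599 CPM against 169, and at 301 against 210 in replicate 2. The direction held in these 3 too, with smaller folds. In the other leading genes it turned, with CNTNAP4 at 118 CPM against 15.9 in replicate 1 and 10.8 against 18.8 in replicate 2. HS3ST5 was at 208 CPM against 48.6, and at 10.8 against 31.6 in replicate 2. Of the spinal cord and hindbrain factors, 4 of 14 were called higher in EN 7 (PAX2, PAX8, GBX1 and GBX2) and 1 lower (FOXP2), and the list's median log2 fold was -0.15 beside -0.03 over all genes. Somatostatin (SST) was called higher at 23.8 CPM in replicate 1. The 9 nuclei of replicate 2 held 0 CPM, and a count of 0 there allows up to 32.3 CPM, the level of 3 UMIs. The lowest genes were DSCAM (39.4 against 427 CPM, and 43.0 against 372 in replicate 2), LUZP2 (17.9 against 219, and 43.0 against 400.0) and TFAP2B (20.6 against 173, and 43.0 against 130.3). Of the 122 genes called higher, 92 had the same direction in the 92960 UMIs of replicate 2 and 60 reached the 2-fold there. Of the 132 called lower, 126 and 97 did so.

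EN 2 was marked by axon guidance receptors of commissural neurons. It had 77 genes called higher (0.428% of genes tested) and 157 called lower (0.873%). ROBO3, a receptor that lets axons cross the midline, was at 591 and 461 CPM in EN 2 against 59.9 and 67.3 CPM in the other neurons (mean log2 fold 2.86 ± 0.35, SD, n = 2). At 2000 UMIs, ROBO3 was seen in 56.3% and 49.7% of EN 2 nuclei against 2.87% and 1.48% of Progenitor 2 nuclei. ROBO4 was at 100.4 and 102 CPM against 7.37 and 6.05 (2.74 ± 0.10). ROBO3 and ROBO4 are neighbouring genes and the strand setting of the counting is not given in the sources used here, so whether reads of one were counted for the other was not tested. CNTN2, the axonal adhesion protein TAG-1, was at 451 and 488 CPM against 77.6 and 109 (2.23 ± 0.23), and DCC, the netrin receptor, was at 2846 and 3992 CPM (1.46). Among the transcription factors, LHX5 of spinal interneurons (35.5 and 33.9 CPM), NHLH2 (38.1 and 27.1 CPM) and ST18 (206 and 336 CPM) were called higher. ST18 was as high in EN 6, at 310 and 336 CPM. TUBB3, a tubulin of young neurons, was called higher at 349 and 328 CPM, and the remaining leading genes were RGMB, NRXN3, CBLB and CRYBG3.

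Receptor and adhesion genes were often lower in EN 2. CDH18, a cadherin, was at 39.8 and 25.2 CPM against 650 and 557 in the other neurons (log2 fold -3.87 ± 0.20), and PCDH7 and DSCAM followed. Of 19 glutamate receptor genes, 7 were called lower and 0 higher (median log2 fold -0.68 beside -0.02 over all genes). GRIN2B, an NMDA receptor subunit, was at 16.9 and 8.62 CPM in EN 2 and at 104 and 65.1 CPM over all neurons. Of 57 guidance and adhesion genes, 16 were called lower and 3 higher, the latter ROBO3, DCC and NRXN3.

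EN 5 held the highest levels of several receptor genes. It had 124 genes called higher (0.69% of genes tested) and 28 called lower (0.156%). CDH18 was at 2099 and 3288 CPM in EN 5 against 293 and 328 CPM in the other neurons (mean log2 fold 3.04 ± 0.35, SD, n = 2). NKAIN2 was at 795 and 1142 CPM against 93.1 and 121 (3.05 ± 0.12). SPHKAP, an anchor of protein kinase A, was at 149 and 81.7 CPM against 9.80 and 1.35. The other leading genes were RALYL, the adhesion molecule gene ALCAM, the calmodulin regulator gene PCP4, SAMD3 and the phosphodiesterase gene PDE1C. Each of the 8 had a log2 fold of 2.43 or more in both samples. Of the glutamate receptors, 4 of 19 were called higher and 0 lower (median log2 fold 0.53 beside -0.09 over all genes). GRIA1, an AMPA receptor subunit, was at 913 and 980 CPM and at 285 and 232 over all neurons. GRIN2B was at 283 and 299.6 CPM, and GRIN2A, another NMDA receptor subunit, was at 70.7 and 69.0 CPM. Of 24 potassium channel genes, 3 were higher (KCNB2, KCNH5 and KCNMA1) and 1 was lower (KCNN2). Among the factors, ONECUT1 was at 170 and 187 CPM (2.12) and TFAP2B at 444 and 376 CPM (1.78). EBF1, EBF2, EBF3, POU3F2, BCL11A, NR2F1 and ST18 were lower, which made 7 of 39 shared neuronal factors lower and 3 higher. The genes lowest in EN 5 by the naming rule were ST18, ROBO3 and CNTN2, of which ROBO3 and CNTN2 lead EN 2.

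EN 4 held the most SLC17A6 and had some sensory and early neuronal genes called higher, of which it shared NTRK3 and GAP43 with EN 8. It had 115 genes called higher (0.64% of genes tested) and 29 called lower (0.161%). MECOM, a zinc finger factor, was at 350 and 282 CPM in EN 4 against 26.1 and 59.4 CPM in the other neurons, with log2 folds of 3.32 and 2.07. SLC17A6 was second, at 140 and 123 CPM against 7.96 and 22.5. FLRT2 (69.0 and 105 CPM against 7.15 and 12.7), the heparan sulfate enzyme gene NDST4, the repulsive guidance cue gene SLIT3, MDGA1, DISC1FP1 and CACNA2D1 followed. CACNA2D1 was at 677 and 905 CPM in EN 4 and at 571 and 793 in EN 8. MDGA1 was at 71.1 and 78.9 CPM in EN 4 and at 72.7 and 31.1 in EN 8. Of 14 sensory lineage genes, 3 were called higher and 0 lower (median log2 fold 0.17 beside -0.05 over all genes). They were NTRK3, the receptor of neurotrophin 3 (315 and 293 CPM), the pain-related sodium channel gene SCN9A (46.5 and 63.0 CPM), and POU4F2 (19.8 and 18.6 CPM). The 14 genes summed to 636 and 673 CPM in EN 4, to 670.2 and 734 in EN 8 and to 717 and 711 in EN 6, so that their sum was not highest in EN 4. NTRK3 was at 307 and 288 CPM and GAP43 at 322 and 339 CPM in EN 8, both also called higher there. LMX1B, a factor of dorsal spinal and serotonergic neurons, was at 45.8 and 66.8 CPM. Of 39 shared neuronal factors, 4 were called higher (EBF2, EBF3, MEIS1 and MYT1L, factors of differentiating neurons) and TCF4 was called lower. Their median log2 fold was 0.16 beside -0.05 over all genes. Of 15 neuronal maturity genes, only the growth cone gene GAP43 was called, as higher, at 219 and 254 CPM. The lowest genes were SLC6A5, PAX8 (49.2 and 4.93 CPM against 337 and 144) and PAX2 (105 and 31.2 CPM against 564 and 373).

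EN 8 shared the glutamate transporter and had its largest folds in lipid kinase, potassium channel and guidance genes. It had 106 genes called higher (0.589% of genes tested) and 112 called lower (0.623%). RET was at 4.04 and 8.29 CPM in EN 8, without a call. DGKB, a diacylglycerol kinase, was at 594 and 166 CPM against 13.7 and 23.4, with log2 folds of 4.67 and 2.40. DPP10, a partner of Kv4 potassium channels, was at 2227 and 1359 CPM against 240 and 127 (mean log2 fold 3.24 ± 0.12, SD, n = 2). UNC5D, a netrin receptor, was at 1102 and 571 CPM against 109 and 143. NTNG1, XYLT1, SLC35F3 and RNF220 were also among the leading genes, and RNF220 differed in size between samples (382 and 118 CPM against 26.0 and 44.6). Of 57 guidance and adhesion genes, 9 were called higher and 4 lower. SHOX2, a homeobox factor, was at 35.0 and 92.2 CPM and LMX1B at 37.7 and 109 CPM. Of 9 acetylcholine receptor genes tested, CHRNA7 (92.9 and 107 CPM) and CHRM3 (144 and 120 CPM) were called higher and 0 lower. Of 14 spinal cord and hindbrain factors, 6 were called lower and only LMX1B higher (median log2 fold -0.94). PAX2 was at 57.9 and 15.6 CPM against 548 and 345, and LHX1 was at 12.1 and 6.22 CPM. Besides SLC6A5 and PAX2, ROBO3 was among the lowest, at 6.73 and 2.07 CPM against 152 and 138.

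**Figure D4:**
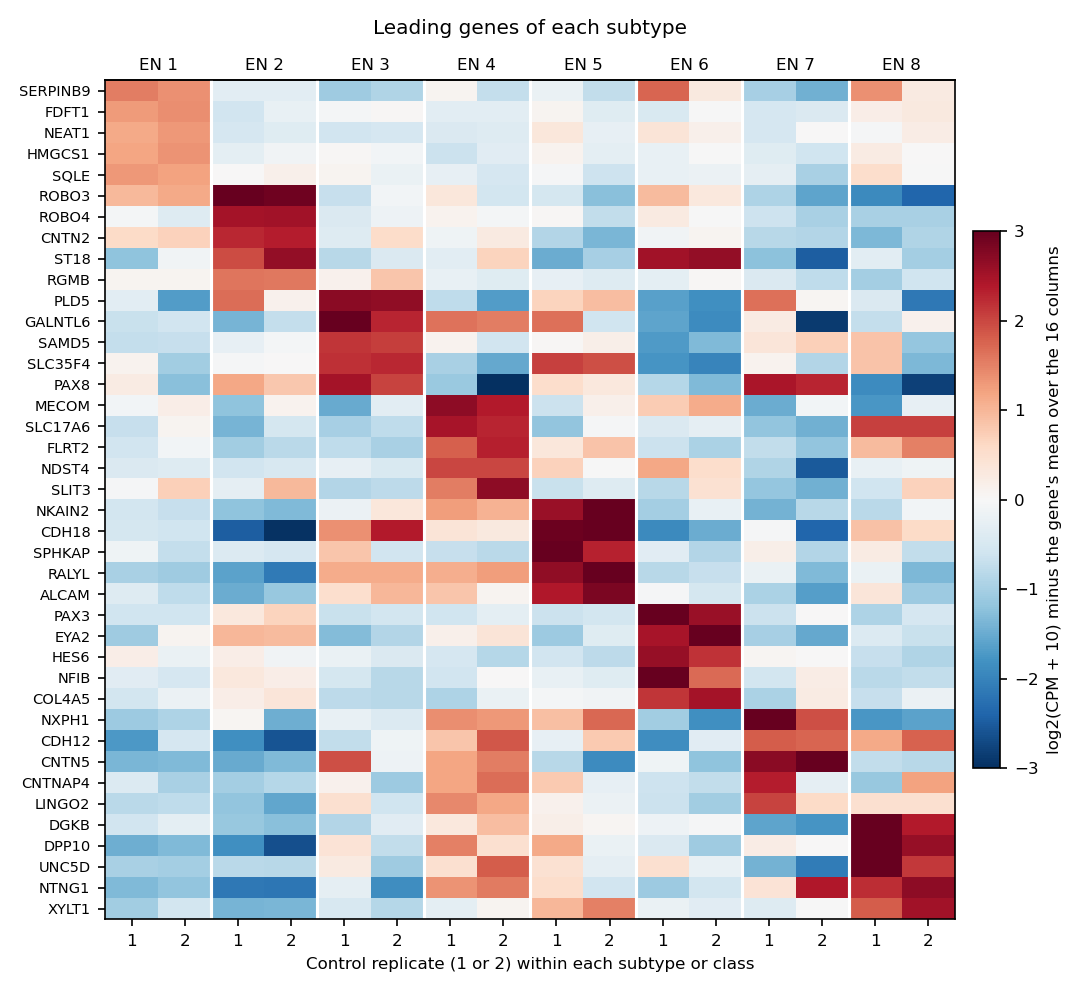
Level of 5 leading genes of each subtype as log2 (CPM + 10) minus the gene's mean over the 16 columns (colour, limited to -3 and 3), for each subtype in control replicates 1 and 2. The darkest red mostly lies where gene and subtype match. PAX8 of EN 3 is high in EN 7 too, ST18 of EN 2 is high in EN 6, and SERPINB9 of EN 1 is higher in EN 6 in replicate 1. In replicate 2, CNTNAP4 and LINGO2 of EN 7 are higher in EN 4, and the second EN 7 column stands for 9 nuclei.

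EN 6 carried progenitor and Notch pathway genes. It had 213 genes called higher (1.18% of genes tested) and 158 called lower (0.879%), the most higher calls of any subtype. PAX3, a paired box factor of dorsal neural and neural crest progenitors, was at 841 and 625 CPM in EN 6 against 69.0 and 81.5 CPM in the other neurons (mean log2 fold 3.11 ± 0.45, SD, n = 2). HES6, a Notch-pathway factor of newly born neurons, was at 248 and 178 CPM against 30.2 and 21.4 (2.63 ± 0.07). EYA2 was at 152 and 266 CPM against 13.2 and 22.8 (2.94 ± 0.19). NFIB, COL4A5, PARD3B, the thyroid hormone receptor gene THRB and the hedgehog co-receptor gene BOC were the other leading genes. NFIB and THRB had the larger fold in replicate 1, at 3.26 and 1.99 for NFIB and 3.27 and 1.76 for THRB.

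The progenitor genes by which the study annotated other nuclei were called higher in 5 of 7 cases in EN 6 (NOTCH1, SOX2, PAX3, PAX7 and NFIA, median log2 fold 1.66 beside -0.03 over all genes). The 7 genes summed to 1613 and 1373 CPM in EN 6, of which PAX3 alone gave 841 and 625 CPM. They summed to 182 to 587 CPM in the other subtypes of replicate 1. Their sum was 794 and 934 CPM in Progenitor 1 nuclei, below EN 6, and 2050 and 2434 CPM in Progenitor 2 nuclei. Of 13 neurogenesis genes, 6 were called higher and 0 lower. The proneural factor NEUROD4 was at 29.7 and 33.7 CPM, the Notch ligand DLL1 at 136 and 121 CPM and DLL3 at 47.8 and 50.5 CPM. The Notch list, chosen after its values were seen, summed to 777 and 745 CPM in EN 6 and to 626 and 676 CPM in Progenitor 2 nuclei. Genes of cell division were not higher in EN 6, where MKI67 was at 1.80 and 3.12 CPM. Of 15 neuronal maturity genes, 2 were called lower and 0 higher, SYN2 at 27.9 and 26.8 CPM and GAP43 at 28.8 and 61.8 CPM, and 6 of 19 glutamate receptor genes were called lower. EN 6 also held the largest share of the 5% highest doublet scores of Scrublet, 17.5% and 16.8% of its nuclei, against 0.758% to 8.05% in the other subtypes with 20 or more nuclei. Without those nuclei, the genes called lower numbered 289, and the higher genes stayed within 1.5 times. The part of doublets in the EN 6 profile was not tested further. SLC1A3, the glial and progenitor glutamate transporter, was at 113 and 72.4 CPM in EN 6 and at 23.7 and 19.7 over all neurons, and it was the only one of 7 tested glial and neural crest genes called higher.

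EN 1 had few genes of its own and many at low level. It had 46 genes called higher (0.256% of genes tested) and 285 called lower (1.58%). Its leading genes included enzymes of cholesterol synthesis. FDFT1, a squalene synthase, was at 445 and 480 CPM in EN 1 against 149 and 165 CPM in the other neurons, with log2 folds of 1.52 and 1.49. HMGCS1, SQLE and MSMO1 had log2 folds of 1.32 to 1.47 over both samples. A list of 24 cholesterol genes, chosen after its values were seen, had 7 called higher and 0 lower (median log2 fold 0.82 beside -0.01 over all genes). It summed to 4196 and 4200 CPM in EN 1, to 1611 to 2394 CPM in the other subtypes of replicate 1 and to 1269 to 2129 in those of replicate 2. In nuclei annotated Progenitor 1 the sum was 3104 and 4169 CPM.

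Other leading genes of EN 1 were SERPINB9 (153 and 134 CPM against 46.8 and 36.8, with 179 and 58.7 CPM in EN 6), the nuclear RNA NEAT1 and DNAJC3, a chaperone of the unfolded protein response. NEAT1 was at 3516 and 3946 CPM against 1363 and 1407. Of 22 genes of the unfolded protein and stress response, 3 were called higher and 0 lower (EIF2AK3, DNAJC3 and CREBRF), and the list was chosen after its values were seen. PGK1 was the 1 gene of 12 tested in hypoxia and glycolysis called higher, at 199.6 and 242 CPM. The sum of the stress list was 1568 and 1440 CPM in EN 1 and 2471 and 1973 CPM in Progenitor 1 nuclei.

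Several groups of neuronal genes held lower calls in EN 1 and others held none. Of 57 guidance and adhesion genes, 21 were called lower and 0 higher (median log2 fold -0.81 beside -0.01 over all genes). Of 39 shared neuronal factors 7 were lower, of 19 glutamate receptors 5 were lower and of 24 potassium channels 4 were lower, with 0 higher in each. No gene was called in either direction among 15 neuronal maturity genes, 7 sodium channels, 8 calcium channels, 13 GABA and glycine receptors and 9 acetylcholine receptors. SNTG1, a neuronal syntrophin, was lowest at 34.6 and 34.3 CPM against 229 and 254 (-2.50 ± 0.11), and SAMD3 and CSMD1 followed. GRIA1 was at 83.1 and 77.8 CPM and MYT1L at 78.6 and 87.0 CPM. EN 1 had the lowest median depth (6840 and 7021 UMIs) and the highest deposited percent of ribosomal transcripts (1.12% and 0.886%). Its nuclei were called in G1 phase less often than those of other subtypes, 34.7% and 35.2% against 54.0% to 66.7%, and in G2M more often, 20.3% and 18.0% against 2.92% to 12.3%. MKI67 was at 0.941 and 1.65 CPM in EN 1 and at 26.2 and 28.5 CPM in Progenitor 2 nuclei, and the cycling list summed to 63.1 and 44.5 CPM against 387 and 415. Cycling is therefore not read from the phase calls. The part of depth and RNA quality in the EN 1 profile was not tested.

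**Figure D5:**
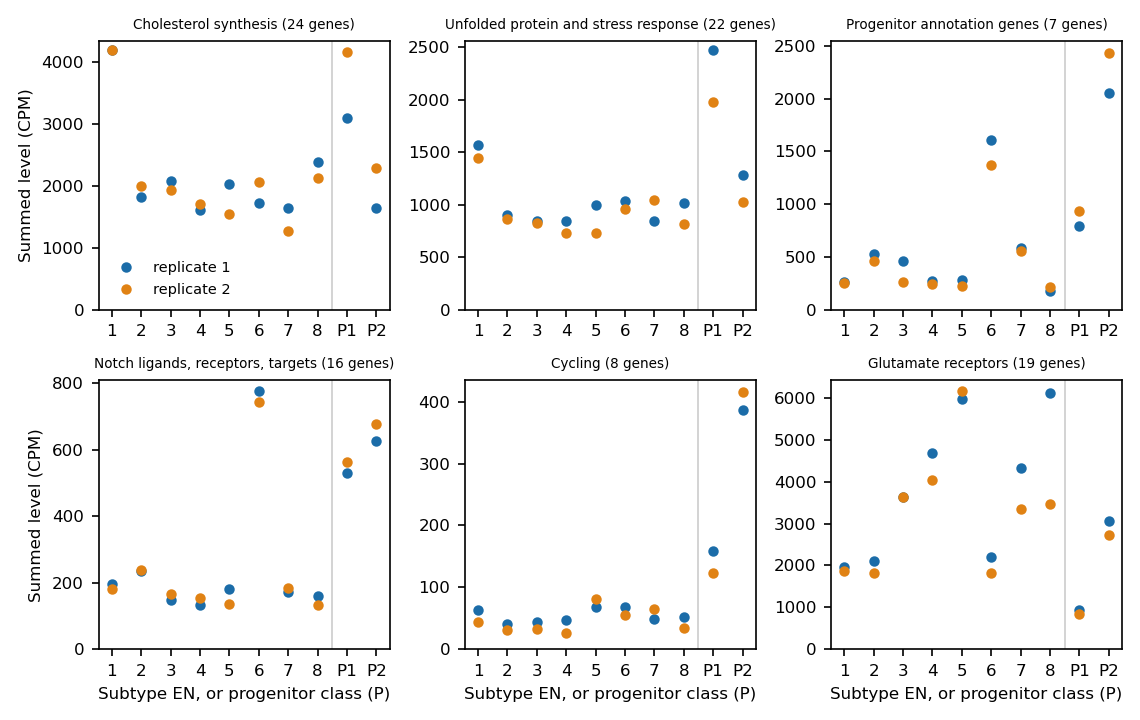
Summed level (CPM, vertical axes from 0) of 6 gene lists in EN 1 to EN 8 and in Progenitor 1 (P1) and Progenitor 2 (P2) nuclei, with 1 point per control replicate. Among subtypes the cholesterol list is highest in EN 1 and the progenitor and Notch lists in EN 6, in both samples, and the cycling list is low in all subtypes beside Progenitor 2.

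EN 4 and EN 8, the subtypes with SLC17A6, were compared directly in both samples, a pair chosen after values were seen. EN 4 had 91 genes at least 2-fold higher than EN 8 (0.506% of genes tested), and EN 8 had 35 at least 2-fold higher than EN 4 (0.195%). MECOM was at 350 and 282 CPM in EN 4 and at 6.73 and 37.3 in EN 8. PDZRN4 was at 117 and 187 CPM in EN 4 and at 8.07 and 8.29 in EN 8, and NXPH1 was at 219 and 206 against 16.1 and 18.7. In the other direction, SHOX, a homeobox factor related to SHOX2, was at 32.3 and 69.4 CPM in EN 8 and at 0 and 6.03 in EN 4. DGKB, XYLT1 and TFAP2B (389 and 228 CPM against 86.1 and 66.3) were also higher in EN 8.

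EN 3 and EN 7, the subtypes with the most PAX8, were compared in replicate 1 alone. EN 3 had 102 genes at least 2-fold higher than EN 7 (0.567%) and EN 7 had 80 at least 2-fold higher than EN 3 (0.445%). GALNTL6 was at 854 CPM in EN 3 and 77.4 in EN 7, MAST4 at 692 and 90.6 and the adhesion gene TENM2 at 1778 and 255. NXPH1 was at 732 CPM in EN 7 and 65.3 in EN 3, CDH12 at 880 and 141 and the growth factor gene PDGFC at 73.2 and 8.77. In the 9 nuclei of replicate 2 these 6 genes had the same direction.

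The subtypes were close to each other in overall expression, and how alike the folds of a subtype were between the 2 samples varied. Pearson's r of log2 (CPM + 10) between subtypes of 1 sample was taken across 17982 genes, which are not independent replicates. It was 0.889 to 0.978 in replicate 1 and 0.843 to 0.962 in replicate 2. In replicate 2 the pairs with EN 7, of 9 nuclei, lay at 0.843 to 0.87, and the other pairs at 0.91 to 0.962. The closest pair in replicate 1 was EN 3 with EN 7. Between samples, the r of the log2 folds of the same subtype was 0.84 for EN 1, 0.75 for EN 2, 0.72 for EN 6, 0.60 for EN 4, 0.53 for EN 5, 0.52 for EN 3, 0.49 for EN 8 and 0.28 for EN 7. Between different subtypes of different samples it was -0.45 to 0.34, and EN 7 of replicate 1 with EN 3 of replicate 2 gave 0.26. The folds share the nuclei of the authors' joint clustering, which set the subtypes in both samples at once. Of genes 2-fold higher in EN 6, 213 were so in both samples, 59.7% of the 357 in replicate 1 and 74.5% of the 286 in replicate 2. For EN 3 the 41 shared genes were 64.1% of 64 in replicate 1 and 30.6% of 134 in replicate 2. For EN 8, 106 shared genes were 34.0% of 312 and 49.1% of 216. No gene at least 2-fold higher or lower in 1 sample was 2-fold the other way in the other for EN 1 to EN 6. For EN 8, 1 of the genes higher and 3 of those lower in replicate 1 were so, and for EN 7, against the 9 nuclei of replicate 2, 8 and 2.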

How the data were processed

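Nuclei of 2 control ganglioid samples were used, and the PP121 matrices were left out. Per the paper's methods, the authors made the deposited UMI counts with kallisto and bustools from droplet 3' libraries, filtered nuclei, clustered both controls together (17 principal components, resolution 0.6) after regressing out depth, mitochondrial and ribosomal percent and cell cycle scores, and deposited the annotation with its percent and phase columns and its identities. The submitters' processing notes also name Cell Ranger, Seurat 4.0.4 and GRCh38, without a role. Whether intronic reads and strand were used, and the rules of the identities other than nitrergic, are not given in the sources used here. The deposited sample column of the annotation goes against the labels for the controls, so samples follow the labels, and the dates are those of the annotation. The matrices hold 8531 and 4846 barcodes, of which 4283 and 3030 are annotated, and 4655 and 3226 lie within the study's stated limits.

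Counts were summed per subtype and sample (36601 features, 17982 tested) with Python 3.11.15, numpy 2.4.6, scipy 1.17.1 and pandas 2.3.3, and plotted with matplotlib 3.10.9. Total counts over all barcodes were 49428774 and 33969959. Library totals set CPM, with scaling factors of edgeR 4.0.16 and DESeq2 1.42.0 (R 4.3.3) as alternatives, besides other filters, pseudocounts and references and each replicate left out. No test was run. The calling code was tested on simulated data. Intervals are exact (Clopper-Pearson, 95%) and cover counting error only. Shares of nuclei with a UMI were taken after thinning to 2000 UMIs, which left out shallower nuclei. No doublets were removed here beyond the authors' filters, and Scrublet (scanpy 1.11.5) served as an alternative.

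Members and lists were chosen with earlier results of these data known, and the cholesterol, stress and Notch lists and the direct pairs after values were seen. Named genes were the 8 highest by mean log2 fold with 50 CPM or more and the 3 lowest with 50 CPM or more in the other neurons, leaving out symbols of clone or noncoding style and mitochondrial and ribosomal protein genes, plus called genes of the lists and transmitter genes. Some genes are not reported here.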

Additional observations from a re-analysis of the deposited data

Results flagged for a closer look

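Genes whose folds had opposite signs in the samples were sought among the named genes, and 2 were found, both in EN 7. CNTNAP4, a contactin-associated adhesion gene, had a log2 fold of 2.303 in replicate 1 (118 CPM against 15.9 in the other neurons) and of -0.473 in replicate 2 (10.8 against 18.8 CPM). HS3ST5, a heparan sulfate sulfotransferase gene, had a log2 fold of 1.895 in replicate 1 (208 against 48.6 CPM) and of -1.003 in replicate 2 (10.8 against 31.6 CPM). In replicate 2 each of these levels stands for 1 UMI in 9 nuclei. The difference between samples was not tested.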

How the results depend on the processing

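The counts of called genes depended most on the pseudocount and on what a subtype was set against, and the cause was not tested unless named. With a pseudocount of 2 CPM, the genes called higher in EN 1 to EN 8 numbered 144, 270, 63, 204, 187, 389, 266 and 182, and those called lower 706, 343, 99, 94, 76, 322, 470 and 213. With 50 CPM, they numbered 8, 23, 20, 31, 69, 73, 42 and 36 higher and 79, 47, 2, 11, 5, 59, 30 and 30 lower. Against the single other subtype with the highest (or lowest) level, which is stricter by construction, 2, 5, 5, 5, 19, 66, 9 and 17 were higher and 3, 0, 0, 0, 0, 5, 2 and 2 lower. Against the mean of the other subtypes, EN 4 had 67 higher, and EN 3, EN 5, EN 6 and EN 7 had 69, 45, 238 and 202 lower. EN 5 had 16 lower with TMM scaling and 16 with DESeq2 size factors. These moved every log2 fold of EN 5 up by 0.11 to 0.12, and by less than 0.1 in the other subtypes except the 9 EN 7 nuclei of replicate 2 (-0.18 and -0.15). EN 6 had 249 lower with each nucleus scaled first and 289 without the 5% highest Scrublet scores. The other counts under these settings, and all counts with a minimum of 10 or 200 UMIs, stayed within 1.5 times.

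A call needed both samples, so leaving one out could only add calls. With 1 sample, the genes called higher numbered 95 to 96 in EN 1, 147 to 163 in EN 2, 64 to 134 in EN 3, 189 to 239 in EN 4, 183 to 267 in EN 5, 286 to 357 in EN 6 and 216 to 312 in EN 8. Those called lower numbered 444 to 450, 256 to 259, 51 to 152, 59 to 68, 78 to 208, 252 to 307 and 229 to 342. EN 7 rests on replicate 1 and has no such range. The share of neurons in EN 7, 5.90% as a mean, was 0.729% or 11.1% with 1 sample, and for 2 samples leaving one out always lies within 1 SD. With all annotated enteric neurons as the denominator, or without the 5% highest Scrublet scores, each share moved by less than 1 SD.

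Of 88 named genes, 82 kept their call with 50 CPM, and 87 with each nucleus scaled first, RNF220 in EN 8 being the exception. Against the most extreme other subtype 31 kept it and 9 changed sign, since another subtype lay further out. These were SAMD3 (0.15) and CSMD1 (1.15) in EN 1, ST18 in EN 2 (-0.28), ROBO3 in EN 3 (1.75) and EN 5 (1.25), SLC6A5 (0.80), PAX8 (0.25) and PAX2 (0.72) in EN 4, and CDH18 in EN 6 (1.03), as mean log2 folds.

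Depth limits the shares of nuclei with a UMI, given here as means of both samples at 4000 UMIs and without thinning. CHAT in EN 3 was at 20.9% and 32.3%, SLC6A5 in EN 3 at 89.5% and 94.0%, SLC17A6 in EN 4 at 31.3% and 43.0%, SLC17A6 in EN 8 at 22.6% and 35.8%, and ROBO3 in EN 2 at 67.7% and 81.2%. No paired analysis was possible because no model was fitted, and each fold was already taken within 1 sample. Age and sample cannot be told apart here.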

Other observations

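Several gene groups showed few or no calls in any subtype. None of 4 tested motor neuron factors and none of 8 immediate early genes was called in any of the 8 subtypes. The immediate early genes, which respond to stimulation and to handling of tissue, summed to 109 to 183 CPM over the subtypes of replicate 1 and to 86.1 to 159 CPM over those of replicate 2. Of 14 forebrain and midbrain factors 1 passed the minimum of 50 UMIs, and SIX6 had no UMI in either sample. Of 25 listed neuropeptide genes 12 passed it, and SCG2 and TAC1 in EN 8 and SST in EN 7 were called higher.

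Inhibitory receptor and calcium channel genes differed between subtypes in level. GABRG3, a GABA type A receptor subunit, was at 266 and 174 CPM in EN 5 and at 20.7 and 5.62 CPM in EN 6. Of 13 GABA and glycine receptor genes tested, 4 were called lower in EN 6. CACNA1E, a voltage-gated calcium channel subunit, was at 91.5 and 75.7 CPM in EN 8 and at 6.19 and 0 CPM in EN 2. KCND3, a Kv4 potassium channel gene whose products pair with DPP10, was called higher in EN 8 at 72.7 and 107 CPM.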
